A study of Homo sapiens with 16 samples.

Results

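The NRF2 antioxidant response genes are 36 protein-coding genes named by symbol, the transcription factor gene NFE2L2 (NRF2), its regulators and the enzymes, carriers and iron-storage proteins it is known to control. Of these, 35 were found among the 62069 gene identifiers counted, and all 35 passed the filter on low counts. SRXN1, which encodes sulfiredoxin, matched no identifier and was not analysed here. The study sequenced 16 RNA libraries from IMR90 ER:RAS, a line of human lung fibroblasts that carries an oncogenic RAS joined to an oestrogen receptor domain. The drug 4-hydroxytamoxifen (4OHT) switches the fusion on, and lasting RAS signalling drives such fibroblasts into senescence. The 4 groups held 4 libraries each: cells with the hairpin shAHCY_2 and 4OHT, cells with the hairpin shAHCY_4 and 4OHT, senescent EV cells given 4OHT (EV_4OHT), and non-senescent EV cells (EV). All cells carried the fusion, all were labelled as day 6 and passage 15, and 4OHT was given at 100 nM. Both hairpins target AHCY, the enzyme that removes S-adenosylhomocysteine left over from methylation. The 4 groups hold no hairpin against another target and no cells that lack the fusion but received 4OHT. Separate cultures are not stated for the libraries of a group, so p-values here reflect library-to-library spread that may be technical.

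NRF2 is held in the cytoplasm and sent for degradation by KEAP1, an adaptor of a ubiquitin ligase whose cysteines react with oxidants and electrophiles. When KEAP1 is modified, or is bound by SQSTM1 (p62), NRF2 builds up, enters the nucleus, pairs with a small MAF protein such as MAFG and binds antioxidant response elements. BACH1 competes for the same elements and represses genes such as HMOX1 until haem displaces it. The targets make glutathione and reduced thioredoxin, break down haem, store iron, reduce quinones and aldehydes and regenerate NADPH. NRF2 is controlled largely at the level of protein, so the amount of its transcript is an incomplete measure of its activity, which was not measured here.

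Total counts were 8236199 to 18235787 per library. AHCY averaged 18.5 ± 4.54 CPM (counts scaled to a common library size, SD, n = 4) with shAHCY_2 and 14.7 ± 2.19 with shAHCY_4, against 164 ± 8.08 in EV_4OHT and 114 ± 11.3 in EV, so the target was low in all 8 hairpin libraries. The 8 fibroblast markers, all tested, summed to 4678 to 5375 CPM in the hairpin libraries, 4740 to 4923 in EV_4OHT and 9765 to 11429 in EV, with 7 of the 8 lower in EV_4OHT than in EV. Of 10 markers of other cell types, 4 passed the low-count filter and all 10 together summed to 4.46 to 13.3 CPM. Of these 4, 1 was called higher in EV_4OHT than in EV, where 26.7% of all genes were. The leukocyte marker PTPRC held 0 counts in every EV library and at most 13 in a library given 4OHT, values near the floor. Mitochondrially encoded transcripts took 4.38% to 5.33% of the counts in the hairpin libraries, 6.34% to 6.47% in EV_4OHT and 5.31% to 5.85% in EV, and their part in the results was not tested. Replicate 59 of shAHCY_2 stood apart: across genes its deviation fell with GC content (Spearman's rho = -0.535, against -0.266 to 0.281 in the other libraries), and it was the lowest of its group for 24 of the 35 genes and the highest for 8.

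Sequence was examined in the promoters, from 250 bases before to 50 bases after each start, since NRF2 binds antioxidant response elements. RefSeq promoters (GRCh38.p14) were at hand for 30 of the 36 genes. The core of the antioxidant response element, TGACNNNGC on either strand, occurred in 7 of these 30 (23.3%) and in 3702 of all 27305 promoters (13.6%). The AP-1 word TGANTCA, which can share letters with it, occurred in 4 of the 30 (13.3%) and in 7.76% of all promoters. Many known NRF2 elements lie farther from the start than this window reaches, and a match is a description of letters, not a measured site. The 6 promoters shown are from genes whose transcripts behaved differently: TXNRD1 and PGD passed the test as lower with each hairpin, GSTP1 passed it with shAHCY_4, CBR1 and ME1 were higher in EV_4OHT and passed it with neither hairpin, and AKR1C1 had the lowest fitted fold changes with the hairpins. Each is printed 5′ to 3′ on the gene's own strand, from 250 bases before to 20 bases after the start, with the element core in capitals. They lie at chr12:104215529-104215798 (+ strand) for TXNRD1, chr1:10398814-10399083 (+) for PGD, chr11:67583562-67583831 (+) for GSTP1, chr21:36069774-36070043 (+) for CBR1, chr6:83431032-83431301 (- strand) for ME1 and chr10:4963165-4963434 (+) for AKR1C1.
TXNRD1: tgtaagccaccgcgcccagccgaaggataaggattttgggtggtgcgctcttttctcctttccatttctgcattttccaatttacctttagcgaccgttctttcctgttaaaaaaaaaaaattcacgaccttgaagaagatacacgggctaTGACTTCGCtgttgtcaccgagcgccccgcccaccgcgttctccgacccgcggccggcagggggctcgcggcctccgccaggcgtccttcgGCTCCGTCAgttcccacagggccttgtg
PGD: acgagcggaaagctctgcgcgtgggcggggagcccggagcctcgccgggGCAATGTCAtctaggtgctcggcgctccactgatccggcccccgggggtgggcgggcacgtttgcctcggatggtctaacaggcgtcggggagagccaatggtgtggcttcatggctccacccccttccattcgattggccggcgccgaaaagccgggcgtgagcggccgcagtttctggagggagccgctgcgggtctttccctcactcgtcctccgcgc
GSTP1: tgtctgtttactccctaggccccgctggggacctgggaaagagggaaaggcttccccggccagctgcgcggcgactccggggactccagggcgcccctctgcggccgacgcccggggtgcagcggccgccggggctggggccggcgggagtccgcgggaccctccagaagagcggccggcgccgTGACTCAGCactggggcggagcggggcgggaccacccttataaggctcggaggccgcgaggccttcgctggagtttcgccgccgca
CBR1: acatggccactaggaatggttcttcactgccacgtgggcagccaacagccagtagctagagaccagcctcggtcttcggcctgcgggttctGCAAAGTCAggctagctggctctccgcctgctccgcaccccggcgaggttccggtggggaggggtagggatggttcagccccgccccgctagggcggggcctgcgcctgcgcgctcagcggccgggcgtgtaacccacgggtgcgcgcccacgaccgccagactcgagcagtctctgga
ME1: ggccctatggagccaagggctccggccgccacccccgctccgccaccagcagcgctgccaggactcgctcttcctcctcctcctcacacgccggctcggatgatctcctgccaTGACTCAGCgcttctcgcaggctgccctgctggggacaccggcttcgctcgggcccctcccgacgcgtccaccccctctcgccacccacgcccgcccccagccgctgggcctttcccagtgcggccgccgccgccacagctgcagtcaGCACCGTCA
AKR1C1: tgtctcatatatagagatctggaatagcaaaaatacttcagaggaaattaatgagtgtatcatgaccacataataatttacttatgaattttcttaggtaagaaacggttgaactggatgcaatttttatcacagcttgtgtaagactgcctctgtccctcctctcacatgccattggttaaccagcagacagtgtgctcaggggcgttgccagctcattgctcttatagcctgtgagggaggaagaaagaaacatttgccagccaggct
The TXNRD1 promoter held the core at positions -99 and, on the opposite strand, -8, counted from the start. PGD held it on the opposite strand at -201. In GSTP1, at -66, and in ME1, at -137, the word was TGACTCAGC, in which an AP-1 word overlaps the core. ME1 also held TGACGGTGC on the opposite strand at 12, after the start. CBR1 held TGACTTTGC on the opposite strand at -159, and this window of AKR1C1 held none. Genes with the core were found among those that passed the test with the hairpins and among those that did not.

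In senescent EV_4OHT cells against EV cells, most of the NRF2 genes were higher. By edgeR's quasi-likelihood test, with p-values adjusted over all 13526 genes tested, 21 of the 35 were higher and 7 were lower, where 26.7% and 26.8% of all genes were called in those directions. The median log2 fold change was 0.42 over the 35 genes and -0.02 over all genes. The highest was HMOX1, at 2.30 ± 0.14 (SE), and the lowest was AKR1C3, at -1.18 ± 0.29. Bulk RNA cannot tell fewer cells of a kind from less RNA per cell.

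When AHCY was knocked down in cells given 4OHT, the NRF2 genes that moved were lower. With shAHCY_2 against EV_4OHT, 11 of the 35 were lower and 0 higher in edgeR's test, where 3.07% of all genes were called lower and 3.91% higher. The count of higher genes was also 0 at an unadjusted p under 0.05, in DESeq2 and in limma-voom. The median log2 fold change was -0.24, against 0.01 over all genes. With shAHCY_4 against EV_4OHT, 14 were lower and 0 higher, where 6.86% of all genes were called lower and 7.58% higher, and the median was -0.27 against 0.01 over all genes. Here 1 gene, BLVRA, was higher at an unadjusted p under 0.05, and 0 were in DESeq2 and limma-voom. Both hairpin comparisons, and the senescence comparison, use the same 4 EV_4OHT libraries, so their fold changes are not independent of each other. Leaving out EV_4OHT replicate 53 or 54 left 7 genes called lower with shAHCY_2, leaving out shAHCY_2 replicate 59 left 9, and leaving out shAHCY_4 replicate 63 or 64 left 9 called lower with shAHCY_4.

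**Figure D1:**
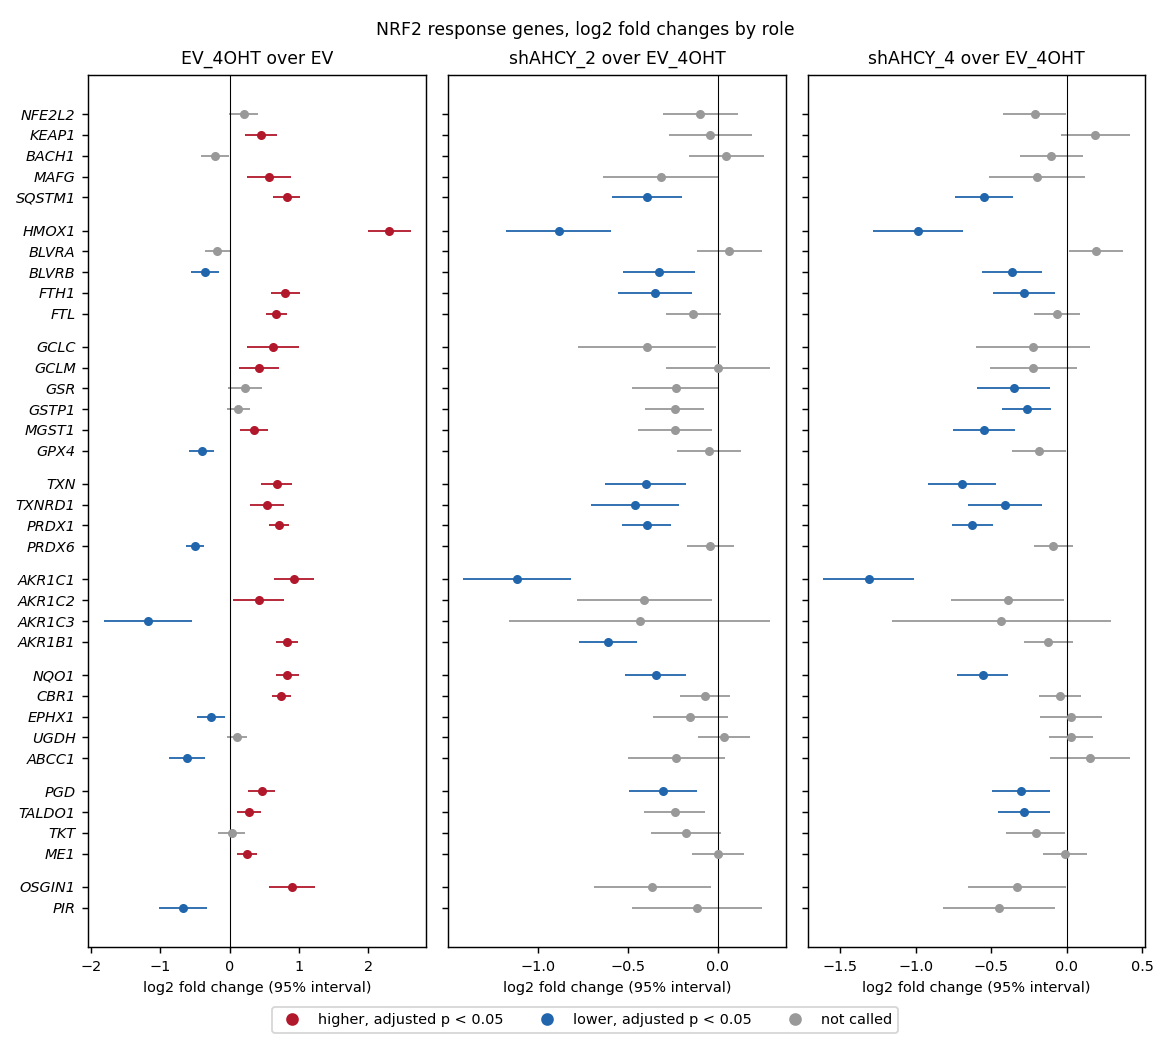
Log2 fold changes of the 35 genes, grouped by role from the regulators at the top to the other targets at the bottom, for EV_4OHT over EV (left), shAHCY_2 over EV_4OHT (middle) and shAHCY_4 over EV_4OHT (right). Points are edgeR estimates, lines their 95% intervals, and colours the calls at an adjusted p under 0.05. In the left panel 21 genes are red and 7 blue, and in the others 11 and 14 are blue and 0 red.

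Among the 5 regulators, the transcript of NRF2 itself passed the test in none of the 3 comparisons in the main fit. NFE2L2 stood at 141, 159, 203 and 150 CPM with shAHCY_2, at 161, 147, 146 and 147 with shAHCY_4, at 174, 167, 176 and 180 in EV_4OHT and at 140, 154, 173 and 137 in EV. The shAHCY_4 libraries all lay below the EV_4OHT libraries, while shAHCY_2 and EV overlapped them. Its log2 fold change was -0.10 ± 0.10 with shAHCY_2 (adjusted p = 0.6), -0.21 ± 0.10 with shAHCY_4 (adjusted p = 0.15) and 0.21 ± 0.10 in EV_4OHT over EV (adjusted p = 0.074). The last of these passed with each library's GC trend removed (0.21) and without EV replicate 51 (0.27), and the shAHCY_4 value passed in a fit of only the 2 groups compared (-0.22, adjusted p = 0.006). NFE2L2 overlaps AGPS on the opposite strand, and the libraries do not mark strand.

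SQSTM1, which encodes the p62 protein that sequesters KEAP1 and is also an NRF2 target, stood at 890, 879, 685 and 942 CPM with shAHCY_2, at 763, 838, 729 and 720 with shAHCY_4, at 1182, 1089, 1115 and 1072 in EV_4OHT and at 684, 618, 543 and 679 in EV. All hairpin libraries lay below all EV_4OHT libraries and above all EV libraries. SQSTM1 was higher in EV_4OHT than in EV, by 0.82 ± 0.09 on the log2 scale (adjusted p = 6.9e-08), and lower than EV_4OHT with shAHCY_2 (-0.39 ± 0.09, adjusted p = 0.0074) and with shAHCY_4 (-0.55 ± 0.09, adjusted p = 0.00017). KEAP1, the repressor, stood at 142, 150, 101 and 137 CPM with shAHCY_2, at 156, 160, 150 and 156 with shAHCY_4, at 148, 139, 137 and 122 in EV_4OHT and at 112, 100, 81.8 and 104 in EV. It was higher in EV_4OHT than in EV (0.45 ± 0.11, adjusted p = 0.00098) and passed the test with neither hairpin (-0.04 ± 0.11 with shAHCY_2, 0.19 ± 0.11 with shAHCY_4). MAFG, the small MAF partner, was higher in EV_4OHT than in EV (0.57 ± 0.15, adjusted p = 0.0021), with -0.32 ± 0.15 and -0.20 ± 0.15 with shAHCY_2 and shAHCY_4 (adjusted p = 0.21 and 0.42). It overlaps SIRT7 in the annotation, to which 1520 counts were assigned over all libraries against 2090 for MAFG. BACH1, the competing repressor, was called in none of the 3 comparisons in the main fit (-0.21 ± 0.09 in EV_4OHT over EV, adjusted p = 0.07). In EV_4OHT over EV it was called lower in 4 of 17 alternative fits. Among them were scaling by library totals only (-0.32, adjusted p = 0.0061) and leaving out EV_4OHT replicate 55 (-0.26, adjusted p = 0.042).

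Haem breakdown and iron storage held the member with the largest rise in senescence. HMOX1, haem oxygenase 1, which opens the haem ring and releases iron and carbon monoxide, stood at 99.3, 93.0, 71.3 and 117 CPM with shAHCY_2, at 108, 96.5, 66.3 and 85.7 with shAHCY_4, at 200, 159, 187 and 158 in EV_4OHT and at 37.6, 34.5, 32.3 and 38.2 in EV. Every library of both hairpins lay between the ranges of EV_4OHT and EV. Its mean was 54.1% of that in EV_4OHT with shAHCY_2 and 50.7% with shAHCY_4, and 267% and 250% of that in EV. The log2 fold change was -0.88 ± 0.13 with shAHCY_2 (adjusted p = 0.00015), -0.98 ± 0.14 with shAHCY_4 (adjusted p = 2.4e-05) and 2.30 ± 0.14 in EV_4OHT over EV (adjusted p = 4.9e-12).

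The ferritin subunits were both higher in EV_4OHT than in EV and differed in their calls with the hairpins. FTH1, the heavy chain that oxidises iron for storage, averaged 911 ± 162 CPM with shAHCY_2, 951 ± 40.4 with shAHCY_4, 1159 ± 41.9 in EV_4OHT and 664 ± 62.1 in EV (SD, n = 4 each). It was 0.80 ± 0.10 higher in EV_4OHT than in EV on the log2 scale (adjusted p = 2.6e-07) and lower than EV_4OHT by a log2 change of -0.35 ± 0.09 with shAHCY_2 (adjusted p = 0.028) and of -0.28 ± 0.09 with shAHCY_4 (adjusted p = 0.047). These 2 calls were weak: the first was lost without EV_4OHT replicate 53, 54 or 55 or shAHCY_2 replicate 57 or 59 (adjusted p 0.051 to 0.074), and the second without any 1 of the 8 libraries compared (0.06 to 0.12). FTL, the light chain, stood at 14822, 15324, 12959 and 17425 CPM with shAHCY_2, at 15706, 16052, 15488 and 16379 with shAHCY_4, at 16887, 17700, 15824 and 16043 in EV_4OHT and at 9965, 10167, 10012 and 11521 in EV. All 12 libraries given 4OHT lay above the EV libraries, and the hairpin libraries overlapped those of EV_4OHT. FTL was 0.67 ± 0.07 higher in EV_4OHT than in EV (adjusted p = 3.5e-08), with -0.13 ± 0.07 with shAHCY_2 (95% interval -0.29 to 0.02) and -0.06 ± 0.07 with shAHCY_4 (-0.21 to 0.09). It alone took 1.04% to 1.74% of each library's counts. Both ferritin genes have processed pseudogenes, which held counts equal to 0.652% of those of FTH1 and 0.0163% of those of FTL.

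The biliverdin reductases turn the product of haem oxygenase into bilirubin. BLVRB was lower in EV_4OHT than in EV (-0.35 ± 0.09, adjusted p = 0.0023) and lower again than EV_4OHT with shAHCY_2 (-0.33 ± 0.09, adjusted p = 0.034) and shAHCY_4 (-0.36 ± 0.09, adjusted p = 0.011), at 57.4 ± 7.59 and 56.1 ± 3.84 CPM, against 72.0 ± 2.86 in EV_4OHT and 92.1 ± 8.37 in EV. The shAHCY_2 call was lost in 7 of the 8 fits that left out a library (adjusted p 0.058 to 0.1). BLVRA passed in none of the 3 comparisons in the main fit. It was called lower in EV_4OHT over EV in 4 of 17 alternative fits, and higher with shAHCY_4 over EV_4OHT in 1 of 17.

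Of the 6 glutathione genes, 3 were lower with shAHCY_4 and 0 with shAHCY_2, where 6.86% and 3.07% of all genes were called lower. With shAHCY_2, 4 of the 6 were lower at an unadjusted p under 0.05, 1 in DESeq2 (GSTP1) and 0 in limma-voom. MGST1, a membrane-bound glutathione transferase, averaged 742 ± 100 CPM with shAHCY_2, 598 ± 75.9 with shAHCY_4, 873 ± 52.7 in EV_4OHT and 683 ± 61.7 in EV. It was lower than EV_4OHT with shAHCY_4 (-0.55 ± 0.09, adjusted p = 0.00034), and its value with shAHCY_2 was -0.24 ± 0.09 (adjusted p = 0.14), which passed without replicate 59 (-0.34, adjusted p = 0.013). GSR, which reduces oxidised glutathione, was lower with shAHCY_4 (-0.35 ± 0.11, adjusted p = 0.036), as was GSTP1, a soluble glutathione transferase (-0.27 ± 0.08, adjusted p = 0.02). The GSR call was lost without any of 6 libraries and the GSTP1 call without any of 3 (EV_4OHT replicate 54, shAHCY_4 replicate 61 or 64; adjusted p 0.057 to 0.075). GCLM, the modifier subunit of the enzyme that makes the first bond of glutathione, stood at 38.1, 40.1, 52.5 and 41.3 CPM with shAHCY_2, at 40.9, 36.9, 28.4 and 41.0 with shAHCY_4, at 40.9, 35.0, 49.3 and 46.1 in EV_4OHT and at 33.0, 31.5, 36.4 and 26.7 in EV. Each hairpin overlapped EV_4OHT, and the log2 fold changes were 0.00 ± 0.13 with shAHCY_2 (95% interval -0.28 to 0.29) and -0.22 ± 0.13 with shAHCY_4 (-0.51 to 0.07). GCLM was higher in EV_4OHT than in EV (0.42 ± 0.13, adjusted p = 0.0096), a call lost without EV_4OHT replicate 55 (0.33, adjusted p = 0.066). Its catalytic partner GCLC was higher too (0.63 ± 0.17, adjusted p = 0.0043), and GPX4, which reduces lipid peroxides, was lower (-0.40 ± 0.08, adjusted p = 0.00027), with neither called against EV_4OHT in the hairpin cells. Against EV_4OHT, GCLC changed by -0.39 with shAHCY_2 and -0.23 with shAHCY_4, and GPX4 by -0.05 and -0.18. An antisense gene at GCLC, AL033397.2, held 403 counts over all libraries against 1996 for GCLC.

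In the thioredoxin system, 3 of the 4 measured genes were lower with shAHCY_2 and 3 with shAHCY_4, where 3.07% and 6.86% of all genes were called lower. PRDX1, a peroxiredoxin that reduces hydrogen peroxide, stood at 1084, 1068, 1008 and 1133 CPM with shAHCY_2, at 991, 921, 871 and 877 with shAHCY_4, at 1385, 1474, 1376 and 1409 in EV_4OHT and at 860, 855, 800 and 931 in EV. EV_4OHT was the highest group in every library, shAHCY_2 lay wholly between it and EV, and shAHCY_4 overlapped EV. The log2 fold change was -0.40 ± 0.06 with shAHCY_2 (adjusted p = 0.00025), -0.62 ± 0.06 with shAHCY_4 (adjusted p = 3.4e-07) and 0.71 ± 0.06 in EV_4OHT over EV (adjusted p = 2.7e-09). TXN, thioredoxin, the electron donor to peroxiredoxins, stood at 793, 872, 1046 and 1018 CPM with shAHCY_2, at 834, 705, 717 and 785 with shAHCY_4, at 1143, 1433, 1094 and 1251 in EV_4OHT and at 629, 761, 806 and 874 in EV. All hairpin libraries lay below all EV_4OHT libraries and overlapped EV. TXN changed by -0.40 ± 0.10 with shAHCY_2 (adjusted p = 0.019), by -0.69 ± 0.10 with shAHCY_4 (adjusted p = 6.2e-05) and by 0.68 ± 0.10 in EV_4OHT over EV (adjusted p = 8.3e-06). The shAHCY_2 call was lost without EV_4OHT replicate 54 or 56 or shAHCY_2 replicate 57 or 58 (adjusted p 0.05 to 0.09).

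TXNRD1, the reductase that keeps thioredoxin reduced with NADPH, stood at 890, 893, 712 and 952 CPM with shAHCY_2, at 1108, 933, 717 and 814 with shAHCY_4, at 1287, 1102, 1185 and 1169 in EV_4OHT and at 963, 801, 717 and 775 in EV. The highest shAHCY_4 library reached into the EV_4OHT range, and the shAHCY_2 libraries all lay below it. TXNRD1 changed by -0.46 ± 0.11 with shAHCY_2 (adjusted p = 0.013), by -0.41 ± 0.11 with shAHCY_4 (adjusted p = 0.016) and by 0.54 ± 0.11 in EV_4OHT over EV (adjusted p = 0.00031). Without EV_4OHT replicate 53 both hairpin calls were lost (adjusted p = 0.051 and 0.052), and the shAHCY_4 call was also lost without shAHCY_4 replicate 63 or 64 (0.07 and 0.061). PRDX6, which also repairs oxidised membrane lipids, was lower in EV_4OHT than in EV (-0.50 ± 0.06, adjusted p = 3.5e-07) and called with neither hairpin (-0.04 ± 0.06 with shAHCY_2, -0.09 ± 0.06 with shAHCY_4).

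**Figure D2:**
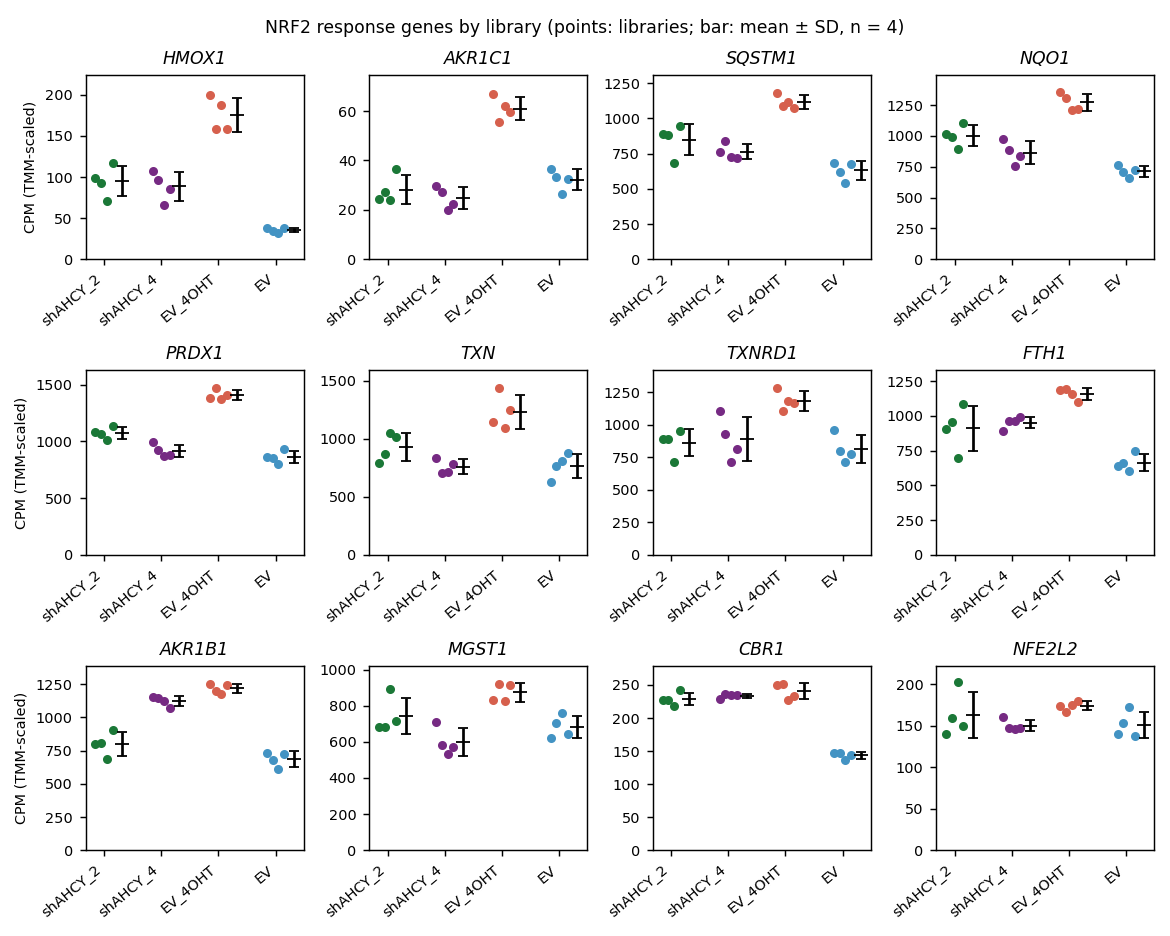
CPM of 12 genes by library (points) with the mean and SD of 4 libraries beside them, in the groups shAHCY_2, shAHCY_4, EV_4OHT and EV from left to right; each panel has its own axis from 0. HMOX1 lies between 66.3 and 117 in the hairpin libraries, between 158 and 200 in EV_4OHT and between 32.3 and 38.2 in EV, while CBR1 overlaps between the hairpins and EV_4OHT.

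The aldo-keto reductases, which reduce aldehydes, ketones and steroids, moved in different directions in EV_4OHT over EV. Over EV_4OHT, 2 of the 4 were called lower with shAHCY_2 and 1 with shAHCY_4, where 3.07% and 6.86% of all genes were called lower. AKR1C1 stood at 24.5, 27.2, 24.0 and 36.6 CPM with shAHCY_2, at 29.8, 27.2, 19.8 and 22.3 with shAHCY_4, at 66.9, 55.8, 62.1 and 59.5 in EV_4OHT and at 36.5, 33.1, 26.4 and 32.6 in EV. Every hairpin library lay below every EV_4OHT library, and both hairpins overlapped EV. The mean with shAHCY_2 was 46.0% of that in EV_4OHT and with shAHCY_4 40.6%, and 87.3% and 77.0% of that in EV. The log2 fold change was -1.11 ± 0.14 with shAHCY_2 (adjusted p = 9.4e-06), -1.31 ± 0.14 with shAHCY_4 (adjusted p = 6.5e-07) and 0.93 ± 0.13 in EV_4OHT over EV (adjusted p = 4.5e-06). AKR1C2 stood at 7.22, 5.08, 4.46 and 7.03 CPM with shAHCY_2, at 6.21, 7.33, 4.96 and 5.75 with shAHCY_4, at 7.90, 7.62, 7.70 and 8.5 in EV_4OHT and at 5.97, 6.69, 4.76 and 6.33 in EV. The EV_4OHT libraries lay above all others, but AKR1C2 was not called with the hairpins (-0.41 ± 0.17 with shAHCY_2, -0.39 ± 0.17 with shAHCY_4), and its call in EV_4OHT over EV (0.42 ± 0.17, adjusted p = 0.039) was lost in 6 of the 8 fits that left out a library.

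AKR1C3 ran the other way in senescence. It stood at 1.30, 0.858, 1.04 and 2.19 CPM with shAHCY_2, at 0.852, 1.99, 1.70 and 0.850 with shAHCY_4, at 1.58, 1.89, 1.67 and 2.26 in EV_4OHT and at 3.61, 5.39, 3.07 and 4.80 in EV. All libraries given 4OHT were below the EV libraries, and the change in EV_4OHT over EV was -1.18 ± 0.29 (adjusted p = 0.0017). With 7 to 32 counts in a hairpin library, the 95% intervals against EV_4OHT reached from -1.16 to 0.29 with each hairpin. The coding sequences of AKR1C1 and AKR1C2 are identical at 98.0% of bases, and those of AKR1C1 and AKR1C3 at 91.8%, so reads may be assigned to the wrong member or dropped, and how multi-mapping reads were treated is not given in the sources used here.

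AKR1B1, aldose reductase, was the gene on which the hairpins differed. It stood at 799, 803, 689 and 902 CPM with shAHCY_2, at 1149, 1144, 1119 and 1070 with shAHCY_4, at 1249, 1201, 1178 and 1246 in EV_4OHT and at 733, 677, 609 and 727 in EV. The shAHCY_2 libraries lay below all shAHCY_4 libraries and overlapped EV, and the shAHCY_4 libraries lay just below EV_4OHT. Its log2 fold change was -0.61 ± 0.07 with shAHCY_2 (adjusted p = 8.4e-06), -0.12 ± 0.07 with shAHCY_4 (adjusted p = 0.31) and 0.83 ± 0.07 in EV_4OHT over EV (adjusted p = 3.5e-09). The difference, shAHCY_2 over shAHCY_4, was -0.49 ± 0.07 (adjusted p = 0.00083), and it passed in every alternative fit.

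Of the 5 quinone, epoxide, glucuronide and export genes, NQO1 was called lower with each hairpin. NQO1, the quinone reductase often used as a readout of NRF2, stood at 1016, 988, 894 and 1104 CPM with shAHCY_2, at 978, 883, 760 and 837 with shAHCY_4, at 1352, 1304, 1212 and 1216 in EV_4OHT and at 764, 706, 661 and 720 in EV. All hairpin libraries lay below EV_4OHT, those of shAHCY_2 lay above EV, and the lowest of shAHCY_4 fell within the EV range. NQO1 changed by -0.34 ± 0.08 with shAHCY_2 (adjusted p = 0.0071), by -0.56 ± 0.08 with shAHCY_4 (adjusted p = 2.9e-05) and by 0.83 ± 0.08 in EV_4OHT over EV (adjusted p = 6.5e-09). CBR1, a carbonyl reductase, stood at 227, 227, 219 and 242 CPM with shAHCY_2, at 228, 236, 234 and 235 with shAHCY_4, at 250, 252, 227 and 233 in EV_4OHT and at 146, 147, 136 and 144 in EV. The hairpin libraries overlapped EV_4OHT and all lay above EV. Its rise in EV_4OHT over EV was 0.75 ± 0.06 (adjusted p = 1.4e-09), close to that of NQO1, and its changes with the hairpins were -0.07 ± 0.06 with shAHCY_2 (95% interval -0.21 to 0.07) and -0.04 ± 0.06 with shAHCY_4 (-0.18 to 0.09). EPHX1, an epoxide hydrolase, and ABCC1, which exports glutathione conjugates, were lower in EV_4OHT than in EV (-0.27 ± 0.09, adjusted p = 0.021, and -0.61 ± 0.12, adjusted p = 0.00018). EPHX1 overlaps TMEM63A on the opposite strand, which held 7823 counts against 11906, and its call was lost without EV replicate 52 or EV_4OHT replicate 54. UGDH, which makes the donor sugar for glucuronidation, was not called.

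The NADPH group supplies the reducing power of the other groups. PGD, the second dehydrogenase of the pentose phosphate pathway, was higher in EV_4OHT than in EV (0.46 ± 0.09, adjusted p = 0.00012), at 451 ± 18.6 against 328 ± 34.1 CPM. It averaged 365 ± 43.2 CPM with shAHCY_2 and 366 ± 26.9 with shAHCY_4, a log2 change of -0.30 ± 0.09 each against EV_4OHT (adjusted p = 0.035 and 0.022). The first call was lost without shAHCY_2 replicate 58 or 59 or any EV_4OHT library (adjusted p 0.052 to 0.1), and the second without EV_4OHT replicate 53 or shAHCY_4 replicate 63 or 64 (0.06 to 0.073). TALDO1, transaldolase, was lower with shAHCY_4 (-0.28 ± 0.08, adjusted p = 0.02), a call lost without EV_4OHT replicate 54 or shAHCY_4 replicate 63 or 64 (0.052 to 0.065), and its value with shAHCY_2 was -0.24 ± 0.08 (adjusted p = 0.069). ME1, malic enzyme, was higher in EV_4OHT than in EV (0.25 ± 0.07, adjusted p = 0.0031) and averaged 244 ± 13.5 CPM with shAHCY_2 and 243 ± 15.5 with shAHCY_4, against 244 ± 9.43 in EV_4OHT and 205 ± 4.49 in EV. TKT, transketolase, was not called in these comparisons. Of the other targets, OSGIN1, an oxidative-stress-induced growth inhibitor, was higher in EV_4OHT than in EV (0.90 ± 0.15, adjusted p = 2.8e-05), and PIR, an iron-containing nuclear protein, was lower (-0.67 ± 0.16, adjusted p = 0.0011), with neither called against EV_4OHT. OSGIN1 changed by -0.36 with shAHCY_2 and -0.33 with shAHCY_4, values that passed in 1 and 3 of 17 alternative fits. For PIR these were -0.12 and -0.45, which passed in 0 and 2 of 17.

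The 3 comparisons share the EV_4OHT libraries, and a gene measured high there by chance appears higher in senescence and lower with both hairpins, so the NRF2 genes were set beside other genes of similar senescence change. Of the 20 NRF2 genes with a log2 fold change of at least 0.25 in EV_4OHT over EV, 10 (50%) were lower with shAHCY_2, against 265 of 4210 other genes (6.29%), and 11 (55%) were lower with shAHCY_4, against 558 of 4210 (13.3%). The median log2 fold change with shAHCY_2 was -0.36 for the NRF2 genes and -0.11 for the others, and with shAHCY_4 it was -0.32 and -0.11. Between 0.25 and 1 the counts were 9 of 19 NRF2 genes with shAHCY_2, against 151 of 3200 others (4.72%), and 10 of 19 with shAHCY_4, against 345 of 3200 (10.8%). HMOX1 was the NRF2 gene above 1, where 11.3% of other genes were lower with shAHCY_2 and 21.1% with shAHCY_4. Below 0.25, 1 of 15 NRF2 genes was lower with shAHCY_2 (BLVRB), against 1.49% of others, and 3 of 15 with shAHCY_4 (BLVRB, GSR and GSTP1), against 3.83%. Abundance differed: the NRF2 genes' median was 211 CPM, against 17.5 over the genes tested. Among genes of at least 30 CPM, a limit chosen after seeing the data, 10 of 17 NRF2 genes (58.8%) were lower with shAHCY_2, against 8.51% of others, and 11 of 17 (64.7%) with shAHCY_4, against 15.8%. These shares describe genes that were listed with earlier results of these data known, and no test was made of them.

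**Figure D3:**
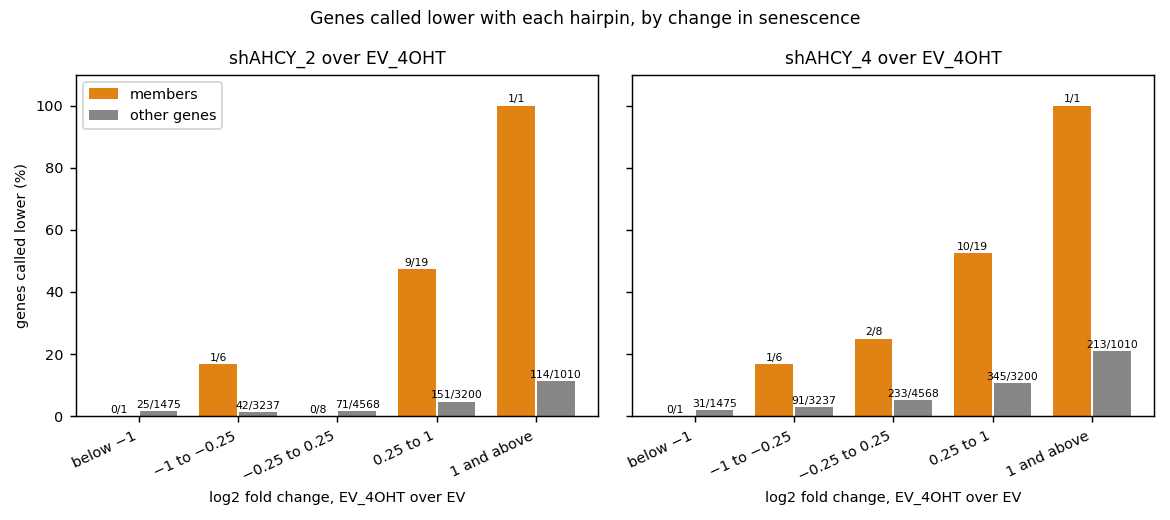
Percentage of genes called lower with shAHCY_2 (left) and shAHCY_4 (right) over EV_4OHT, for NRF2 genes (orange, labelled members) and all other genes tested (grey), in 5 ranges of the log2 fold change of EV_4OHT over EV. Numbers above the bars are genes called over genes in the range; in the range from 0.25 to 1, 9 of 19 and 10 of 19 NRF2 genes are called lower.

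Between the hairpins, 1 of the 35 genes differed. With shAHCY_2 over shAHCY_4, AKR1B1 was lower and 0 genes were higher in edgeR's test, where 0.54% of all genes were called lower and 0.702% higher. At an unadjusted p under 0.05, 4 were higher and 3 lower, and 1 was higher in DESeq2 and 0 in limma-voom. For HMOX1 the difference was 0.10 ± 0.14 (95% interval -0.19 to 0.40) and for AKR1C1 0.20 ± 0.14 (-0.11 to 0.51), so differences of that size could not be told from 0. MGST1 (0.31 ± 0.09, adjusted p = 0.1), TXN (0.29 ± 0.10, adjusted p = 0.15), PRDX1 (0.23 ± 0.06, adjusted p = 0.069), NQO1 (0.21 ± 0.08, adjusted p = 0.16), ABCC1 (-0.38 ± 0.12, adjusted p = 0.12) and KEAP1 (-0.23 ± 0.11, adjusted p = 0.26) had intervals that did not include 0 and missed the threshold after adjustment. PRDX1 passed in DESeq2 (0.23, adjusted p = 0.018), without shAHCY_2 replicate 59 (0.26, adjusted p = 0.04) and with the GC trend removed (0.25, adjusted p = 0.0052).

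**Figure D4:**
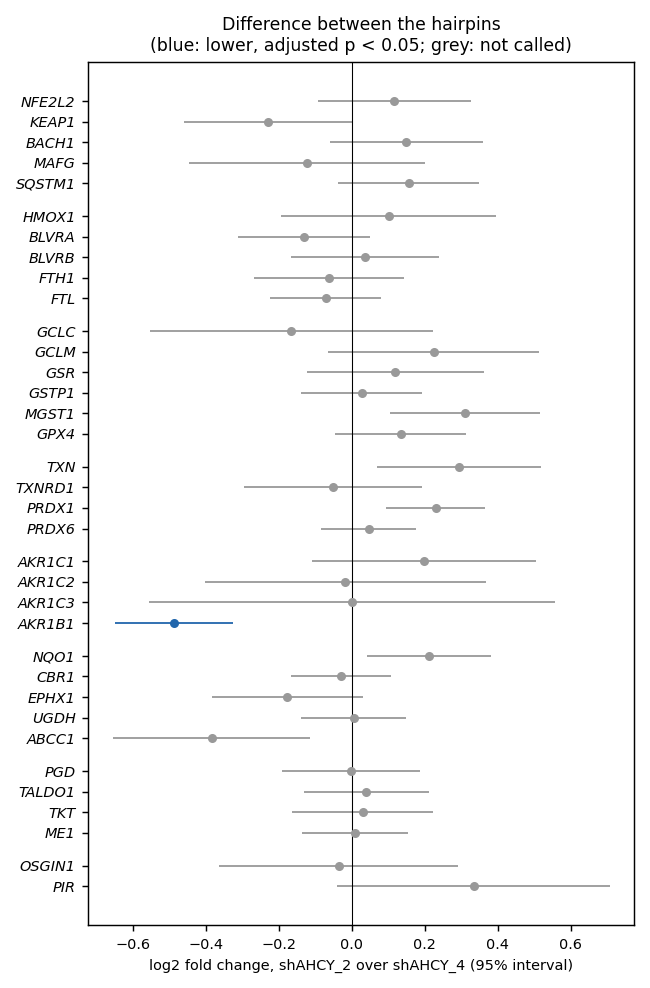
Log2 fold change of shAHCY_2 over shAHCY_4 for the 35 genes, in order of role from regulators to other targets, with 95% intervals. AKR1B1, at -0.49, is the gene called (blue), and most other intervals include 0.

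The hairpin cells were also compared with non-senescent EV cells, a comparison in which calls were common among all genes. With shAHCY_2 over EV, 13 genes were higher and 7 lower, where 24.5% and 23.6% of all genes were called. With shAHCY_4 over EV, 11 were higher and 9 lower, where 25.4% and 25.8% were called. HMOX1 was 1.42 ± 0.14 above EV on the log2 scale with shAHCY_2 and 1.32 ± 0.14 with shAHCY_4 (adjusted p = 2e-08 and 6e-08). CBR1 was 0.67 ± 0.06 and 0.70 ± 0.06 above EV, and FTL 0.54 ± 0.07 and 0.61 ± 0.07. NQO1 was 0.49 ± 0.08 above EV with shAHCY_2 and 0.28 ± 0.08 with shAHCY_4 (adjusted p = 1.8e-05 and 0.0049), and SQSTM1 0.43 ± 0.09 and 0.27 ± 0.09 (adjusted p = 0.00036 and 0.013). The SQSTM1 call with shAHCY_4 was lost without EV replicate 51 or shAHCY_4 replicate 62 (adjusted p = 0.054 and 0.061) and with scaling by library totals only (0.057).

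Other genes stood closer to EV or below it. AKR1C1 was -0.39 ± 0.14 against EV with shAHCY_4 (adjusted p = 0.025) and -0.19 ± 0.14 with shAHCY_2 (adjusted p = 0.27). The first was lost without EV replicate 49 or shAHCY_4 replicate 63 or 64 (adjusted p 0.058 to 0.1) and with the GC trend removed (0.072), and the second passed without shAHCY_2 replicate 60 (-0.37, adjusted p = 0.026). TXN was 0.28 ± 0.10 above EV with shAHCY_2 (adjusted p = 0.029) and -0.01 ± 0.10 with shAHCY_4 (95% interval -0.24 to 0.21), and TXNRD1 and PGD were called with neither. The TXN call was lost without EV replicate 49 (0.16, adjusted p = 0.18), EV replicate 50 or shAHCY_2 replicate 59 or 60, with upper-quartile factors or library totals only, and in a fit of only these groups (adjusted p 0.059 to 0.14 in these others). BLVRB was lower than EV by a log2 change of -0.68 ± 0.09 with shAHCY_2 and -0.72 ± 0.09 with shAHCY_4 (adjusted p = 2.1e-06 and 1e-06). AKR1C3 stood at -1.61 ± 0.31 with each hairpin, PIR at -0.79 ± 0.16 with shAHCY_2 and -1.12 ± 0.16 with shAHCY_4, and GPX4 at -0.45 ± 0.08 and -0.59 ± 0.08, all lower than EV in the test.

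Among 25 other known NRF2 targets, 20 were tested. In EV_4OHT over EV 4 were higher and 8 lower (median -0.12), where 26.7% and 26.8% of all genes were called in those directions. With shAHCY_2 over EV_4OHT 1 was higher and 2 lower (median -0.11), where 3.91% and 3.07% of all genes were called. With shAHCY_4 over EV_4OHT 2 were higher and 4 lower (median -0.07), where 7.58% and 6.86% were called. SLC7A11, the cystine importer that feeds glutathione synthesis, stood at 113, 130, 129 and 118 CPM with shAHCY_2, at 118, 92.5, 70.4 and 91.1 with shAHCY_4, at 201, 164, 186 and 184 in EV_4OHT and at 72.5, 60.4, 57.3 and 45.5 in EV. Its EV_4OHT libraries were the highest, and only the lowest shAHCY_4 library reached the EV range. SLC7A11 changed by -0.58 ± 0.13 with shAHCY_2 (adjusted p = 0.0056), by -0.99 ± 0.13 with shAHCY_4 (adjusted p = 1.3e-05) and by 1.64 ± 0.13 in EV_4OHT over EV. NR0B1, a nuclear receptor known as an NRF2 target in lung cancer cells, averaged 0.447 ± 0.407 CPM with shAHCY_2 and 0.286 ± 0.216 with shAHCY_4, against 1.42 ± 0.109 in EV_4OHT, and was called lower with each (adjusted p = 0.035 and 0.0057). It held 1 to 11 counts in a hairpin library, 16 to 21 in an EV_4OHT library and 13 to 19 in an EV library. NR0B1 passed the low-count filter through the EV_4OHT and EV libraries, so its calls rest on values near the floor. IDH1, the cytosolic NADP-dependent isocitrate dehydrogenase, was higher with shAHCY_2 (0.30 ± 0.06, adjusted p = 0.0043). ABCC3, an exporter, and FECH, which inserts iron to complete haem, were lower in EV_4OHT than in EV (-1.89 ± 0.19 and -0.83 ± 0.11).

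The counts of the remaining lists stand beside the shares over all genes. In EV_4OHT over EV 26.7% of all genes were called higher and 26.8% lower. With shAHCY_2 over EV_4OHT 3.91% were called higher and 3.07% lower, and with shAHCY_4 7.58% and 6.86%. Of 16 other regulators of the pathway, 14 were tested and 4 were higher and 4 lower in EV_4OHT than in EV. Among the higher were the small MAF gene MAFF (0.88 ± 0.09) and BTRC, another ligase adaptor for NRF2 (0.94 ± 0.10). With shAHCY_4 DCAF11, an adaptor of another ligase, was higher (0.39 ± 0.12, adjusted p = 0.027). With shAHCY_2 0 were called by edgeR, DESeq2 or limma-voom, and 1 was lower at an unadjusted p under 0.05. Of 26 other antioxidant genes, 24 were tested: 9 were higher and 7 lower in EV_4OHT than in EV, 1 was lower with shAHCY_2 and 4 were lower with shAHCY_4. The 1 was SOD2, the mitochondrial superoxide dismutase (-0.48 ± 0.11, adjusted p = 0.0083). The 4 were GPX1 (-0.52 ± 0.08), SOD1 (-0.36 ± 0.07), GLRX (-0.34 ± 0.08) and GLRX5 (-0.58 ± 0.15). Between the hairpins 0 of these 24 were called in edgeR's test, where 0.702% of all genes were called higher and 0.54% lower. At an unadjusted p under 0.05, 3 were higher and 2 lower with shAHCY_2 over shAHCY_4, and 1 was higher in DESeq2 and 0 in limma-voom. Of 13 genes of iron uptake, export, sensing and haem synthesis, 12 were tested, with 6 higher and 3 lower in EV_4OHT than in EV. The identifiers matched to NCOA4 in this list and to TXNIP among the antioxidant genes held 0 counts in every library. Why they held none was not tested, so neither gene was measured here. ALAS1, which starts haem synthesis, was higher in EV_4OHT (1.63 ± 0.10), and SLC40A1, the iron exporter ferroportin, was lower (-1.37 ± 0.21). Of the same 12, 1 was higher with shAHCY_2 and 2 with shAHCY_4 over EV_4OHT, among them with shAHCY_4 ACO1, an iron-sensing aconitase (0.25 ± 0.07, adjusted p = 0.014). With shAHCY_2 0 were lower in edgeR's test, against 2 at an unadjusted p under 0.05, 1 in DESeq2 and 0 in limma-voom, and with shAHCY_4 0 were lower by any of these.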

How the data were processed

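Gene-level RNA-seq was deposited for 16 libraries of a human cell line. Per the labels' protocols, total RNA was made into Smart-Seq2 libraries with Nextera XT, which do not mark strand. Per the submitters' processing notes, CASAVA 1.8.2, TopHat2 2.0.11 and featureCounts 1.18.0 were used with hg19 or GRCh37. Not given in the sources used here are the annotation release, the strandedness option and how multi-mapping reads were handled. The deposited values are whole-number counts per Ensembl gene, not normalized. From them, CPM with TMM factors, log2 fold changes and tests were computed here with edgeR 4.0.16 in R 4.3.3. Of 62069 identifiers, filterByExpr kept 13526. A quasi-likelihood model with a mean per group was fitted to all 16 libraries and tested two-sided, with p-values adjusted by Benjamini and Hochberg's method over every tested gene and called under 0.05. Standard errors came from the log2 fold change and the root of F, and 95% intervals use 12 residual degrees of freedom. The test was checked on simulated data. Depth was 8236199 to 18235787 counts per library, and intervals include the spread between libraries.

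The 36 genes, the other lists, the tests and the rule for named genes were chosen with earlier results of these data known. Values in every library are given for HMOX1, NFE2L2, KEAP1, NQO1, GCLM, TXNRD1 and AKR1C1 to AKR1C3, and for the 6 genes with the smallest adjusted p in each of the 3 main comparisons. From each other list, up to 3 called genes per comparison were named. The rule was exceeded, after values were seen, by the library values of SLC7A11, by GLRX5, and by the promoters of GSTP1, CBR1 and ME1. Gene symbols came from the reference tables and GENCODE v29, and promoters from RefSeq (GRCh38.p14). No coordinates of the counted genes are used. Alternatives were RLE or upper-quartile factors, library totals alone, DESeq2 1.42.0, limma-voom (limma 3.58.1), no filter on low counts, at least 10 counts in 8 libraries, a fit of just the 2 groups compared, removal of each library's GC trend, and leaving out each library.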

Additional observations from a re-analysis of the deposited data

Results flagged for a closer look

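In 4 of the 140 groups of 4 libraries examined for the 35 genes, 1 library lay far from the other 3 by Dixon's criterion, which chance alone meets in about 1 group in 20. NFE2L2 with shAHCY_4 had its highest library at 161 CPM, the others lying at 146 to 147. BLVRB in EV had its highest library at 105 CPM, against 87.6 to 88.4 in the others. FTL in EV had its highest library at 11521 CPM, against 9965 to 10167 in the others. MGST1 with shAHCY_2 had its highest library, replicate 59, at 890 CPM, against 680 to 715 in the others, and without it MGST1 passed the test against EV_4OHT (-0.34).

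The hairpins differed for AKR1B1, by a log2 fold change of -0.49 for shAHCY_2 over shAHCY_4 (adjusted p = 0.00083 in edgeR's quasi-likelihood test). All 4 shAHCY_2 libraries lay below all 4 shAHCY_4 libraries. The cause was not tested.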

How the results depend on the processing

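No paired analysis was made, because the labels do not state whether libraries of different groups belong together. Over the 35 genes in 6 comparisons, 3570 values were recomputed under the alternatives: 3392 kept their side of the threshold, 112 lost a call and 66 gained 1. In 117 the sign changed, none of them called in either fit. Calls that held in every fit numbered 23 of 28 in EV_4OHT over EV, 6 of 11 with shAHCY_2 over EV_4OHT (SQSTM1, HMOX1, PRDX1, AKR1C1, AKR1B1 and NQO1) and 8 of 14 with shAHCY_4 over EV_4OHT (SQSTM1, HMOX1, BLVRB, MGST1, TXN, PRDX1, AKR1C1 and NQO1). Scaling by library totals only moved the median of all genes in EV_4OHT over EV to -0.13, leaving 18 of the 35 higher and 9 lower, and with shAHCY_4 over EV_4OHT it gave 1 higher (BLVRA) and 9 lower. Over all 13526 genes this scaling called 2805 higher and 4530 lower in EV_4OHT over EV, and 1441 higher and 697 lower with shAHCY_4 over EV_4OHT. Fitting only the 2 groups gave 1 higher (KEAP1) and 19 lower with shAHCY_4 over EV_4OHT, the added ones being NFE2L2, GPX4, TKT, OSGIN1 and PIR. Calls rose over all genes in that fit, to 1577 higher and 1559 lower of 12686, against 1025 and 928 of 13526 in the main fit. For shAHCY_2 over shAHCY_4, genes called higher numbered 1 in DESeq2, 2 without a low-count filter and 3 with the GC trend removed. Over all genes those called higher numbered 237 of 13526, 430 of 31557 and 241 of 13526 in these fits, against 95 of 13526 in the main fit.

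Leaving out 1 library gave 7 to 12 genes lower with shAHCY_2 and 9 to 12 with shAHCY_4 over EV_4OHT, and 0 higher with either. It gave 19 to 22 higher and 6 to 8 lower in EV_4OHT over EV, 0 to 1 higher and 1 to 2 lower between the hairpins, 11 to 13 higher and 7 to 8 lower for shAHCY_2 over EV, and 9 to 12 higher and 7 to 10 lower for shAHCY_4 over EV. Of other genes with a senescence rise, those lower with shAHCY_2 were 8.61% at a limit of 0.5 and 8.51% at 30 CPM or more, and those lower with shAHCY_4 were 15.6% and 15.8%. Genes with few counts, such as AKR1C3, are limited by depth.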
